A study of Mus musculus with 21 samples.

Results

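Open chromatin was compared between the colon epithelium and the SI crypt of the mouse by ATAC-seq, an assay in which the Tn5 transposase cuts and tags DNA that is not wrapped up in nucleosomes. The comparison used 6 of the 21 samples of the series, taken by their labels: 3 colon and 3 SI crypt ATAC-seq replicates, each with its own list of peaks, and the pooled list of each compartment. Other samples served only as readouts that did not choose the sites, namely 3 SI villus ATAC-seq samples and 12 ChIP-seq samples for the vitamin D receptor (VDR), 4 each from colon, SI crypt and SI villus. All ATAC-seq mice were C57BL/6 and 90 days old per the labels. The colon samples were the whole epithelium scraped from the terminal cecum to the rectum, not split into crypts and surface cells. The SI crypt samples came from the duodenum and were the fraction that passed a 70 µm filter after EDTA, while the SI villus was the fraction held back. Region of the gut, position along the crypt axis and the way the cells were taken off therefore changed together between colon and SI crypt, and they cannot be told apart. The methods of the study give the ATAC-seq mice as untreated animals on chow, whereas the protocol text that the labels attach to these samples mentions 1,25(OH)2D3 for 1 h, so the treatment of the ATAC-seq mice was not settled from the sources. The ChIP-seq mice were C57BL/6, were 4 to 6 weeks old per the labels and older per the methods, and had received 10 ng/g of 1,25(OH)2D3 for 1 h. The methods state that colon and SI were harvested from 1 group of mice, but no label says which samples share an animal. The p-values below rest on the spread among these samples alone, which may be partly technical.

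The epithelium of the gut renews itself from stem cells at the base of crypts in both organs, but the cells that mature from them differ. Duodenal cells digest and absorb sugars, peptides, lipids, iron and calcium, and their gene program depends on the factors GATA4, HNF4 and CDX2. Colon cells take up sodium, chloride and water, make mucus and keep microbes at a distance. They carry the posterior Hox code, the combinatorial expression of HOX genes that marks position from head to tail. CDX factors act in both organs. Promoters are often open in many cell types, while distal regulatory elements, where such factors bind, tend to be open in fewer.

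The lists held between 21269 and 32853 peaks in colon, and between 35220 and 57825 in SI crypt. The groups did not overlap, and the mean log2 number was 0.81 lower in colon, with a two-sided exact permutation p of 0.1, the smallest that 3 against 3 allows. Colon libraries kept 23368011, 26601480 and 38175468 tags and SI crypt libraries 14376006, 18354820 and 23893138. Between 28.7 and 39.1% of the tags were removed as duplicates in colon and between 55.0 and 62.1% in SI crypt. The extension that the peak caller gave each tag was 152 to 164 bp in colon and 91 to 126 bp in SI crypt, and the median peak was 300 to 327 bp wide in colon and 169 to 213 bp in SI crypt. These settings differed between all colon and all SI crypt libraries, and their part in any difference of peak number was not tested. Of the 10 epithelial marker genes, 8 had a promoter called in all 6 libraries, whereas no immune or stromal marker gene did. A promoter was called in no library for 11 of 14 immune and 11 of 17 stromal marker genes. Over all 22225 protein-coding gene symbols, 40.3% had a promoter called in all 6 and 39.4% in none. Stromal marker promoters were called in a mean of 0.41 of 3 SI crypt and 0.059 of 3 colon libraries. For immune markers these means were 0.21 and 0.071, and for all genes 1.60 and 1.42.

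The regions that carry the comparison are shown first. Each is the 200 bp window on the summit of the strongest peak of a site, read from the plus strand of mm9, with matches to the consensus motifs of AP-1 (TGANTCA), posterior HOX (CCAATAAA) and CDX (GNNATAAA) in capitals, on either strand. Matches to the motif of the GATA factors, AGATAAG, are in capitals too. The sites were chosen after their matches were seen, to show what such sites look like, and a match is not a binding site. The first 4 were called in 3 of 3 colon and 0 of 3 SI crypt libraries. They lie 2.31 kb upstream of Car4, a carbonic anhydrase of the brush border (chr11:84768838-84769037, intergenic, with a posterior HOX and an AP-1 match), 15.2 kb upstream of Vdr, the vitamin D receptor itself (chr15:97756109-97756308, intergenic, with a posterior HOX match and 2 CDX matches), 241 kb downstream of the start of Ikzf2, a zinc finger factor of the Ikaros family (chr1:69491303-69491502, intergenic, with an AP-1 match), and at the promoter of Duoxa2, the maturation factor of the hydrogen peroxide producing oxidase DUOX2 (chr2:122124391-122124590, 83 bp upstream of the start, with an AP-1 match).

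Car4: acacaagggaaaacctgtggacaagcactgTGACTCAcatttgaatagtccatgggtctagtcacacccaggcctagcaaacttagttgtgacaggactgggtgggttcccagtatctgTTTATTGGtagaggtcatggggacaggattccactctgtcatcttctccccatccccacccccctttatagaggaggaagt

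Vdr: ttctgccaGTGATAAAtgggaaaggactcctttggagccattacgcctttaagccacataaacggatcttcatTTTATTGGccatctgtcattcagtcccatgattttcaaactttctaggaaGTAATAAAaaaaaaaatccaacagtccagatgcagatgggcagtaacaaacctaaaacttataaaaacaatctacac

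Ikzf2: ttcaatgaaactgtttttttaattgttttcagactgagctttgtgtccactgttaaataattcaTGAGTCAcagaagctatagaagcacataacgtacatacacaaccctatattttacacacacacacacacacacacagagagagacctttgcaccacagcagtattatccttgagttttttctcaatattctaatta

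Duoxa2: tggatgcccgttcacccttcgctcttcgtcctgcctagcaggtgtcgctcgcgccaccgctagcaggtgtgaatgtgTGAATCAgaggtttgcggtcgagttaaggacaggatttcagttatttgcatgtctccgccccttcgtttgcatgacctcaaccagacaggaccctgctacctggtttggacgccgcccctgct

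The other 4 were called in 0 of 3 colon and 3 of 3 SI crypt libraries. They lie in an intron 24.1 kb from the nearest start of Slc2a2, the glucose transporter GLUT2 (chr3:28620766-28620965, with 2 GATA matches and an AP-1 match), in an intron 9.80 kb from the nearest start of Gata4, the duodenal GATA factor (chr14:63879884-63880083, with a GATA match and 2 CDX matches), 18.9 kb upstream of Enpep, a brush border aminopeptidase (chr3:129054446-129054645, intergenic, with a GATA match), and at the promoter of Sis, sucrase-isomaltase (chr3:72771784-72771983, 76 bp upstream of the start, with a CDX match).

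Slc2a2: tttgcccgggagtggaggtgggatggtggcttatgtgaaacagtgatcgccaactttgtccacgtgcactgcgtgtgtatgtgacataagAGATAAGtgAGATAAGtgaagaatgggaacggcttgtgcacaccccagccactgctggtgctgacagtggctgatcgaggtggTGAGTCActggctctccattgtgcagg

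Gata4: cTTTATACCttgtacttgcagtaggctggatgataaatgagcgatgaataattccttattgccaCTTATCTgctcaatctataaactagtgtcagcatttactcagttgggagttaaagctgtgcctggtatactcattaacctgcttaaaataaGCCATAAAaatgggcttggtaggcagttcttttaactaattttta

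Enpep: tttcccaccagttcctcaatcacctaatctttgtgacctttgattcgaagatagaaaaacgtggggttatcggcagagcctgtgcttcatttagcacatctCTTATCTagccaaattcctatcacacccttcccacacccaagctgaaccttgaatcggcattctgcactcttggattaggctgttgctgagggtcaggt

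Sis: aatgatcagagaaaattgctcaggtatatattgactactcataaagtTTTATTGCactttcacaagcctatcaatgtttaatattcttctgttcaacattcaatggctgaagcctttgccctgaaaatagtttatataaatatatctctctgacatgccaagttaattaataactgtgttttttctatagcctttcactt

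A site was a stretch of the union of the 6 lists, and it counted as called in a library when a peak of that library overlapped it by at least 1 bp. The union held 84196 sites, of which 12908 (15.3%) were called in all 6 libraries. Colon-side sites, called in 3 of 3 colon and 0 of 3 SI crypt libraries, numbered 1811, or 2.15% of the union. SI crypt-side sites, called in 0 of 3 colon and 3 of 3 SI crypt libraries, numbered 7659, or 9.1%. The colon-side sites had a median width of 380 bp, and the SI crypt-side sites 271 bp.

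The balance of the 2 sides depended on how many peaks of each library were counted. When every library was cut to its 21269 strongest peaks by pileup, the length of the shortest list, 3145 sites (8.08% of 38928) were colon-side and 2458 (6.31%) were SI crypt-side, so the order turned round. Most of the added colon-side sites were weak peaks of the SI crypt libraries: of the 3145, only 1368 (43.5%) were in none of the whole SI crypt lists, and 440 were in all 3. Of the 2458 SI crypt-side sites, 1828 (74.4%) were in none of the whole colon lists. A stricter set, added after these counts were seen, was therefore kept as well, called strong sites from here on: sites among the strongest 21269 peaks of all 3 libraries of one compartment and absent from all 3 whole lists of the other. They numbered 1368 in colon, which is 75.5% of the colon-side sites, and 1828 in SI crypt, which is 23.9% of the SI crypt-side sites. The cut took no peak from colon replicate 1, whose whole list has 21269 peaks, so any peak of that library could be part of a strong site. The SI crypt lists, of 35220 to 57825 peaks, were all shortened. The name thus sets a lower bar in colon, and strong counts of the 2 sides are not alike. Which compartment had more sites of its own thus could not be read from these lists, and the results below rest on what the sites are, with the strong sites beside the whole set.

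**Figure D1:**
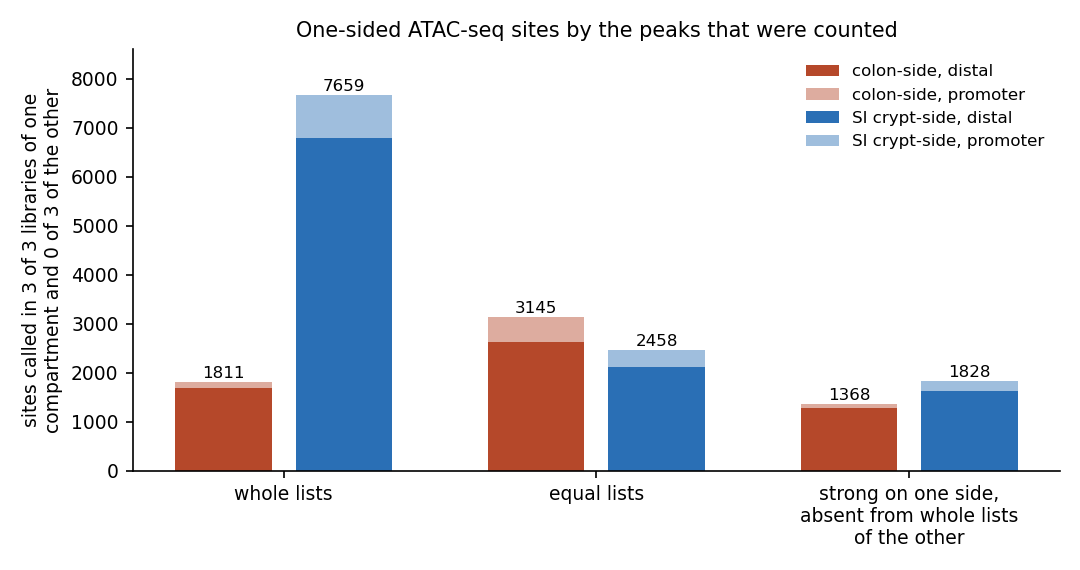
Number of one-sided sites (vertical axis, sites) in colon (red) and SI crypt (blue), split into distal sites (dark) and sites within 1000 bp of a transcription start site (pale), for whole lists, for lists of 21269 peaks per library and for strong sites. Colon-side sites were fewer than SI crypt-side sites with whole lists (1811 against 7659), more with equal lists (3145 against 2458) and fewer among strong sites (1368 against 1828).

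Libraries of one compartment resembled each other more than libraries of different compartments. The sites called in both libraries of a pair were 53.4 to 63.9% of the sites called in either within colon, 27.1 to 39.5% between colon and SI crypt, and 47.6 to 50.4% within SI crypt. With equal lists the shares were 65.0 to 75.6% within colon, 40.5 to 45.1% between the compartments and 59.4 to 61.1% within SI crypt. Sites were also chosen from 2 colon and 2 SI crypt libraries and looked up in the libraries left out, for all 9 choices. Sites called in the 2 colon and neither of the 2 SI crypt libraries were called in the left-out colon library in 50.0 to 93.5% (median 82.4%) and in the left-out SI crypt library in 4.73 to 20.6% (median 18.6%). The reverse choice was called in the left-out colon library in 1.74 to 15.7% (median 5.89%) and in the left-out SI crypt library in 55.6 to 87.8% (median 79.8%). The ranges of the 2 compartments did not overlap for either choice.

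The pooled lists, which the authors called on the merged reads of each compartment, held 39428 peaks in colon and 74734 in SI crypt. Of the pooled colon peaks 71.2% overlapped a pooled SI crypt peak, and of the pooled SI crypt peaks 41.1% overlapped a pooled colon peak. Among colon-side sites, 97.0% were in the pooled colon list and 16.2% in the pooled SI crypt list. Among SI crypt-side sites, 12.6% were in the pooled colon list and 99.4% in the pooled SI crypt list. A peak missing from 3 single libraries was therefore at times called once their reads were merged, and a one-sided site means one without a call at the depth of a single library.

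One-sided sites were mostly distal. Promoter sites, within 1000 bp of a start site of a protein-coding gene, made up 115 of the 1811 colon-side sites (6.35%, Wilson 95% interval 5.32 to 7.57%) and 861 of the 7659 SI crypt-side sites (11.2%, 10.6 to 12.0%). They made up 63.1% of the sites called in all 6 libraries and 20.6% of the union. The order held for strong sites, at 6.80% in colon and 11.2% in SI crypt, but not for equal lists, at 16.5% in colon and 14.0% in SI crypt. Over all peaks of a library, promoter peaks were 34.9 to 45.3% in colon and 28.5 to 37.7% in SI crypt. These ranges overlapped, the mean was 7.73 percentage points higher in colon with a two-sided exact permutation p of 0.2 (n = 3 each), and it was 1.35 points lower in colon with equal lists. Of the colon-side sites 40.6% lay in introns, 56.2% between genes and 3.20% in exons, and of the SI crypt-side sites 42.9%, 52.0% and 5.05%. The distal sites lay a median of 25.4 kb from the nearest start in colon and 28.5 kb in SI crypt.

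Fewer promoters than distal sites were one-sided at the level of genes too. Of 22225 protein-coding gene symbols, 40.3% had a promoter called in all 6 libraries and 39.4% in none. Only 50 genes (0.225%) had a promoter called in 3 of 3 colon and 0 of 3 SI crypt libraries, and 530 (2.38%) in 0 of 3 colon and 3 of 3 SI crypt libraries. Each one-sided site was also given to the protein-coding gene with the nearest start at any distance, which names a neighbour and not a target. In this way 1430 genes (6.43%) had a colon-side site and 4826 (21.7%) an SI crypt-side site. With equal lists the shares of all genes were 10.6% for colon and 8.77% for SI crypt. For strong sites they were 5.04% for colon and 6.71% for SI crypt. Counts in the lists of genes that follow are read against these shares, and in bulk tissue fewer cells with a site open and a less open site in each cell cannot be told apart.

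HOX genes were called on the colon side alone. Of 39 genes of the Hox clusters, 7 had a colon-side site and 0 an SI crypt-side site, and 6 had a strong colon-side site and 0 a strong SI crypt-side site. All 7 sites were at promoters, of Hoxa3, Hoxa5, Hoxa7, Hoxa10, Hoxa13, Hoxb13 and Hoxd1. Hoxb13 and Hoxa13 belong to the last paralog group of the clusters, the most posterior one. At Hoxb13 (chr11:96055373-96055699) the fold enrichment over the local background was 5.30, 5.27 and 8.67 in the 3 colon libraries, against no call in SI crypt. At Hoxa13 (chr6:52210495-52211060) it was 5.87, 8.19 and 6.82 in colon, and 1 SI crypt library had a separate peak within 1000 bp of a start of the gene. At Hoxa5, where it was 4.77, 3.58 and 4.46 in colon, neither SI crypt nor SI villus had any call at the promoter. At Hoxa10 it was 4.40, 4.40 and 6.82 in colon, and the site was called in 2 of 3 SI villus libraries. These were peaks of middling strength: the 7 sites ranked between the 5.40 and the 76.3 percentile of pileup in their libraries, and 19 of the 39 genes had a promoter called in none of the 6 libraries.

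Genes of ion and water transport in the colon stood on the colon side more often than all genes did. Of the 21 listed, 11 (52.4%) had a strong colon-side site and 4 a strong SI crypt-side site. In the whole lists, 11 were at colon-side and 10 at SI crypt-side sites. Limited to sites within 10 kb of the nearest start the counts were 6 and 6, and within 50 kb 9 and 9. Over all 22225 genes these were 503 and 2175 within 10 kb, and 1100 and 3971 within 50 kb. Epithelial markers, a list that favours neither organ, also stood above all genes, with 4 of 10 at strong colon-side and 3 at strong SI crypt-side sites. Atp12a, the colonic proton-potassium pump, had a promoter called in 3 of 3 colon libraries and in no SI crypt or SI villus library. At that promoter (chr14:56983449-56984019) the fold enrichment was 5.48, 10.3 and 6.65 in colon. Car4 had the colon-side site shown above, with a fold enrichment of 9.07, 9.80 and 10.0 in colon, and Car1, its cytosolic relative, had one 1.99 kb from its start, with 6.57, 9.04 and 9.79. Slc26a3, the chloride-bicarbonate exchanger of the colon surface, had 3 colon-side sites in introns and 2 SI crypt-side sites, and none of its 3 colon-side sites was called in any SI villus library. Its site 10.2 kb from the start had a fold enrichment of 6.68, 9.71 and 9.45 in colon, and was overlapped by a VDR peak in all 4 colon ChIP-seq samples and in 0 of 4 from SI crypt. Aqp8, a water channel, had 2 colon-side sites 13.4 and 18.8 kb away. Scnn1a, a subunit of the epithelial sodium channel, had 1, and Nr3c2, the mineralocorticoid receptor that controls it, had 3 beside 6 SI crypt-side sites. Aqp4, another water channel on the same list, went the other way, with 4 SI crypt-side sites and a promoter called in 0 of 3 colon, 3 of 3 SI crypt and 0 of 3 SI villus libraries, where the fold enrichment was 7.07, 8.84 and 7.40 in SI crypt.

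Genes of sugar and peptide digestion, the brush border enzymes and transporters of the duodenum, stood on the SI crypt side. Of the 27 listed, 1 had a strong colon-side site and 9 (33.3%) a strong SI crypt-side site. In the whole lists, 2 were at colon-side and 18 at SI crypt-side sites, and 7 had a promoter called in 0 of 3 colon and 3 of 3 SI crypt libraries, against 0 the other way. At the Sis promoter the fold enrichment was 13.2, 11.8 and 13.9 in SI crypt, the fifth highest of the SI crypt-side promoters by the lowest of the 3 libraries, with no call in colon and calls in all 3 SI villus libraries. Mgam, maltase-glucoamylase, had 6.33, 7.44 and 5.98 at its promoter in SI crypt. Fbp1, a gluconeogenic enzyme, had 8.66, 6.06 and 11.5, and Enpep 11.5, 7.58 and 9.54. The promoters of all of these were called in all 3 SI villus libraries as well. Mme, the endopeptidase neprilysin, had 6 SI crypt-side sites, of which 4 were strong, and Slc2a2 had 5, all called in all 3 SI villus libraries. The lone strong colon-side site of the list was at Slc46a1, the proton-coupled folate transporter.

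Transcription factors of the small intestine were on both sides. Of 21 listed, 5 had a strong colon-side site and 7 a strong SI crypt-side site. In the whole lists, 5 were at colon-side and 15 at SI crypt-side sites, and with equal lists 10 and 8. Gata4 had 0 colon-side and 7 SI crypt-side sites, of which 6 were called in all 3 SI villus libraries. The strongest lay 15.7 kb from its start (chr14:63906005-63906435), with a fold enrichment of 10.8, 12.8 and 11.9 in SI crypt. Within 1000 bp of its starts, 2 of 3 colon and 3 of 3 SI crypt libraries had a peak. Onecut2, a factor of the proximal gut, had a promoter called in 0 of 3 colon, 3 of 3 SI crypt and 3 of 3 SI villus libraries, with 10.6, 8.41 and 11.9 in SI crypt. Maf, a bZIP factor of the villus, had 9 SI crypt-side sites, 2 of them strong. The nuclear receptors were split: Nr1i2, the pregnane X receptor, had 1 colon-side site and no SI crypt-side site, and Nr5a2, which maintains crypts, had 2 colon-side and 3 SI crypt-side sites.

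Transcription factors linked to colon identity were likewise on both sides, and the list held the gene with the most colon-side sites of all. Of 22 listed, 8 had a strong colon-side site and 7 a strong SI crypt-side site, against 8 and 10 in the whole lists. Klf4, a zinc finger factor of differentiating epithelium and of goblet cells, had 9 colon-side and 2 SI crypt-side sites, and 7 of the 9 were strong. The 9 sites lay between 103 and 582 kb from its start, and their fold enrichment ran from 3.57 to 15.1. The nearest one (chr4:55647929-55648429) had 11.7, 12.4 and 15.1 in colon and no call in SI crypt or SI villus. Gata6 had 0 colon-side and 6 SI crypt-side sites, Klf5, a factor of proliferating crypt cells, 0 and 7, and Sox9, which marks the crypt base, 1 and 6. The Sox9 promoter was called in 0 of 3 colon, 3 of 3 SI crypt and 1 of 3 SI villus libraries, with a fold enrichment of 8.13, 5.68 and 8.94 in SI crypt.

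More crypt base and proliferation genes had SI crypt-side than colon-side sites, as did genes at large. Over all genes the shares were 21.7% for SI crypt and 6.43% for colon in the whole lists, and 6.71% and 5.04% for strong sites. Of 26 stem cell and WNT genes, 1 (3.85%) had a strong colon-side site and 5 (19.2%) a strong SI crypt-side site. In the whole lists the counts were 1 (3.85%) and 15 (57.7%). Lgr5, the receptor that marks crypt base stem cells, had a promoter called in 0 of 3 colon, 3 of 3 SI crypt and 2 of 3 SI villus libraries, but with a low fold enrichment of 4.38, 4.38 and 6.47 in SI crypt, and it was not among the strong sites. Olfm4, a secreted stem cell marker of the small intestine that mouse colon lacks, had 4 SI crypt-side sites, and Smoc2, another stem cell marker, had 4. Smoc2 had 8.25, 8.05 and 11.5 at the site 5.97 kb upstream in SI crypt, and no call in colon or SI villus. Of 20 cell cycle genes, 0 had a strong colon-side site and 4 (Ccnd1, Ccnd2, Plk1 and Rrm2) a strong SI crypt-side site. In the whole lists the counts were 0 and 7 (35%), while 17 had a promoter called in all 6 libraries. Ccnd2, a G1 cyclin, had a promoter called in 0 of 3 colon and 3 of 3 SI crypt libraries, with 7.39, 4.87 and 6.57 in SI crypt. Whole epithelium was compared with crypts alone here, so a difference between the organs and one between crypt and surface cells cannot be told apart for these genes.

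Of the 21 goblet cell genes, 1 (Klf4) had a strong colon-side site and 5 (Agr2, Retnlb, Spink4, Atoh1 and Muc4) a strong SI crypt-side site. In the whole lists the counts were 4 and 10, and with equal lists 4 and 5. Atoh1 also had 2 colon-side sites and Spink4 had 1, none of them strong. The shares over all genes were 6.43% and 21.7% in the whole lists, and 5.04% and 6.71% for strong sites. The promoters of Agr2, needed for mucin folding, and Muc4, a membrane mucin, were called in 0 of 3 colon and 3 of 3 SI crypt libraries. Among 21 Paneth cell genes, 1 had a strong colon-side and 2 a strong SI crypt-side site, against 1 and 6 in the whole lists. Paneth cells sit at the base of SI crypts and are not found in mouse colon, and Wnt3, their stem cell niche signal, had 2 strong SI crypt-side sites, both called in all 3 SI villus libraries. Of 23 enteroendocrine genes none had a strong site on either side, and in the whole lists 2 had a colon-side and 3 an SI crypt-side site.

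Genes of calcium, iron and vitamin D handling were on both sides. Of 19 listed, 5 (26.3%) had a strong colon-side and 3 (15.8%) a strong SI crypt-side site, against 7 and 9 in the whole lists. The strong shares over all genes were 5.04% and 6.71%. As strong counts of the 2 sides are not alike, no lean to one side can be read from 5 and 3. The colon-side site upstream of Vdr had a fold enrichment of 5.32, 6.65 and 8.08 in colon and no call in SI crypt or SI villus, while the Vdr promoter was called in all 6 libraries. Atp2b1, the calcium pump that extrudes calcium into the blood, had 3 colon-side and 0 SI crypt-side sites, between 246 and 419 kb from its start. One of them was overlapped by a VDR peak in 2 of 4 colon and 1 of 4 SI crypt ChIP-seq samples. Slc30a10, a manganese transporter induced by 1,25(OH)2D3, had 2 colon-side sites and 0 SI crypt-side sites, 4.96 and 53.1 kb away. Of the other genes, Cldn15, a pore-forming claudin of the small intestine, and Cybrd1, the duodenal ferric reductase, had 1 strong SI crypt-side site each.

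Among 22 genes of immune defence of the epithelium, 5 had a strong colon-side site and 3 a strong SI crypt-side site, against 6 and 10 in the whole lists. Duox2 and Duoxa2, which share a promoter region, had this promoter called in 3 of 3 colon, 0 of 3 SI crypt and 2 of 3 SI villus libraries, with a fold enrichment of 5.96, 5.73 and 9.05 in colon. A further site in an intron 23.6 kb from the Duox2 start had 8.84, 15.4 and 12.0 in colon, and a weaker SI crypt-side site with 6.35, 7.12 and 7.39 lay beside it. Il1rl1, the receptor of interleukin 33, had 2 colon-side sites, Tlr4 and Saa3 had 1 each, and none of these 4 was called in an SI villus library. Ccl25, the chemokine that draws lymphocytes to the small intestine, had 0 colon-side and 4 SI crypt-side sites, 2 of them strong, and its site 11.5 kb away had 10.0, 8.96 and 9.30 in SI crypt.

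In the remaining lists, strong colon-side and SI crypt-side sites were nearest to 3 and 4 of 22 lipid absorption genes, 2 and 4 of 26 xenobiotic metabolism genes, 2 and 3 of 9 bile acid genes and 4 and 3 of 10 epithelial markers. They were nearest to 0 and 2 of 17 stromal markers, 0 and 0 of 14 immune markers and 0 and 1 of 20 housekeeping genes, all given with colon first. In the whole lists the counts were 3 and 10 for lipid absorption, 4 and 14 for xenobiotic metabolism, 2 and 4 for bile acids, 5 and 6 for epithelial markers, 0 and 4 for stromal markers, 0 and 2 for immune markers and 0 and 3 for housekeeping genes. Slc10a2, the ileal bile acid transporter, had 2 colon-side and 2 SI crypt-side sites, with a promoter called in 0 of 3 colon, 3 of 3 SI crypt and 3 of 3 SI villus libraries. Cyp2c55, a cytochrome of the colon, had 2 strong colon-side sites, with a fold enrichment between 4.59 and 16.2.

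**Figure D2:**
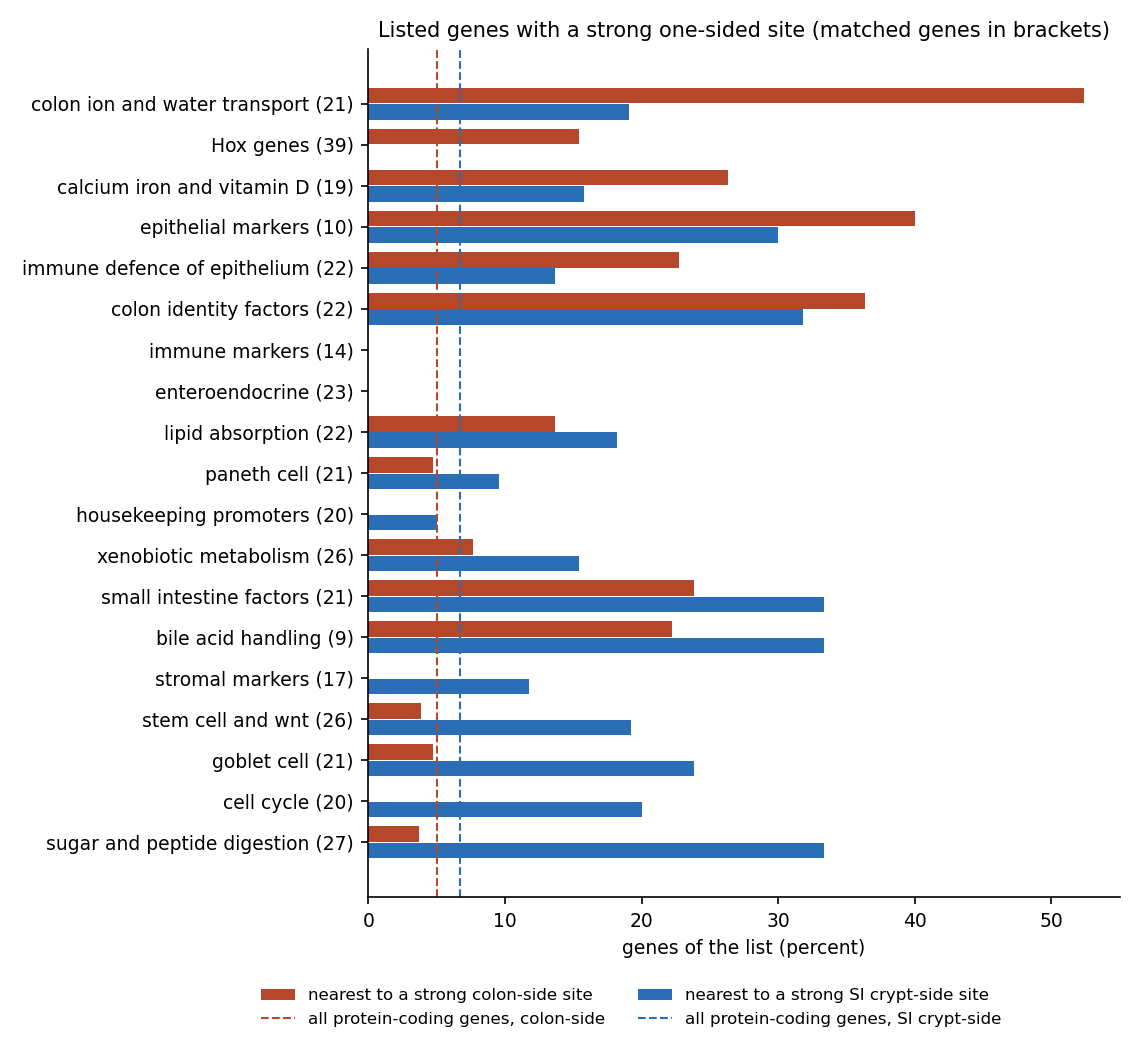
Percent of the genes of each list (horizontal axis, number of genes in brackets) that were nearest to at least 1 strong site of the colon (red, upper bar) or of the SI crypt (blue, lower bar), with the same percent over all 22225 genes as dashed lines (5.04% for colon and 6.71% for SI crypt). Colon ion and water transport stands highest for colon, at 52.4%, and Hox genes have colon bars only. Sugar and peptide digestion reaches 33.3% for SI crypt, as do small intestine factors and bile acid handling, but with a colon bar of only 3.70%.

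Several genes were nearest to many sites of one side, some of them with sites of the other side as well. After Klf4, the genes with the most colon-side sites were Klf6, with 6 colon-side and 3 SI crypt-side sites, and Ikzf2 and Gm17326, with 5 and 0 each. The 5 sites near Ikzf2 lay between 216 and 272 kb from its start, all 5 were strong, and none was called in any SI villus library. Then came 4 sites each at Bmp3, a ligand of the BMP family, Slc2a1, the basal glucose transporter GLUT1, Fam129a, Mboat1, Slc8a1 and 2010106G01Rik, with no SI crypt-side site. Klf3 and Snrpn had 4 colon-side and 2 SI crypt-side sites each, and Tcf7l2, a WNT effector, had 4 and 1. On the SI crypt side the genes were Auts2 with 1 colon-side and 16 SI crypt-side sites, Foxp1 and Odz3 with 0 and 12 each, Bcl11a, Ptprd, Gdi2 and B230118H07Rik with 0 and 10 each, and Pde4d with 3 and 10. Epha4 and Maf had 0 and 9, Lrig3 and Tbl1xr1 3 and 9, and Zmiz1 1 and 9. The part of these SI crypt-side sites that was strong ran from 1 of 12 at Foxp1 to 5 of 9 at Lrig3 and Tbl1xr1. It was 5 of 16 at Auts2 and 5 of 10 at Bcl11a and Ptprd, against 23.9% of all SI crypt-side sites. A gene without close neighbours collects more nearest sites than one in a dense region.

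The strongest one-sided peaks by pileup included regions with a low fold enrichment over the local background. On the colon side, Mamstr, a muscle coactivator, had the strongest promoter site (chr7:52898825-52899410), with a fold enrichment of 9.02, 12.7 and 10.7 in colon and no call in SI crypt or SI villus. It was followed by the promoters of Midn, Myh14, Gpr137 and Rchy1, with 3.42 to 8.24. The 5 leading distal sites were 2 near Gm3395 on chromosome Y and 2 near Sfi1, all with a fold enrichment of 1.64 to 1.97, and 1 in an intron of Tesk2, with 14.8, 14.7 and 15.4. On the SI crypt side the leading promoters were those of Gm11167 and Gm10716, with 1.87 to 2.13, and of Lmcd1, Nrxn3 and Gm14435, with 10.0 to 15.7, and the 5 leading distal sites were 1 near Gm3395 and 4 near Sfi1, with 2.00 to 3.55. Of the one-sided sites, 41 of 1811 in colon (2.26%) and 10 of 7659 in SI crypt (0.131%) had a fold enrichment under 3 in at least 1 library. Ranked by fold enrichment instead, an order added after the values were seen, the leading distal colon-side sites were those of Tesk2, Sh3rf1, Abca12, Tle4 and Pik3r3, with 12.5 to 16.2, and the leading SI crypt-side ones those of Ptprd, Gm1840, Gm8214, Epha3 and Rergl, with 14.3 to 19.6.

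The sequence under the peaks differed between the compartments in some of the motifs searched, GATA, AP-1 and posterior HOX among them, while CDX overlapped. Over all peaks, the GATA motif was in 2.33, 2.63 and 2.66% of summit windows in the 3 colon libraries, against 5.77, 5.79 and 5.96% in the 3 SI crypt libraries. The AP-1 motif was in 13.2, 15.5 and 16.9% in colon, against 12.2, 10.5 and 11.2% in SI crypt. The posterior HOX motif was in 1.44, 1.45 and 1.70% in colon, against 1.07, 1.11 and 1.03% in SI crypt. The groups did not overlap for these 3, nor for ETS (CCGGAAGT; 3.04 to 3.93% in colon, 1.99 to 2.79% in SI crypt), TCF/LEF (CTTTGATNT; 0.762 to 0.883% in colon, 1.07 to 1.16% in SI crypt) and HNF1 (0.0752 to 0.0883% in colon, 0.0951 to 0.0967% in SI crypt), which makes 6 of 12 motifs, or 50%. They overlapped for HNF4 (CAAAGTCCA), CDX, FOXA (TGTTTAC), KLF (GGGTGTGGC), CTCF and DR3, the element that VDR binds with RXR. For DR3, FOXA and CTCF this did not hold in distal peaks alone. DR3 was there in 0.108 to 0.163% of windows in colon and 0.0957 to 0.0991% in SI crypt. FOXA was in 5.19 to 5.44% and 4.53 to 4.86%, and CTCF in 1.34 to 2.27% and 2.34 to 2.84%. The CDX and posterior HOX letters share their last 5 bases but cannot match at the same start. Each of the 6 differences had the smallest two-sided exact permutation p that 3 against 3 allows, 0.1, or 0.2 after Benjamini-Hochberg adjustment over the 12 motifs. With distal peaks alone, AP-1 was in 21.4 to 23.6% of windows in colon and 13.9 to 15.5% in SI crypt, and GATA in 3.57 to 3.69% in colon and 7.59 to 8.46% in SI crypt. ETS, a motif of promoters, no longer separated the groups there. With promoter peaks alone, AP-1 did not separate the groups, at 3.39 to 4.47% in colon and 3.61 to 4.21% in SI crypt.

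At one-sided distal sites AP-1, GATA and posterior HOX stood further apart, in the same directions. AP-1 was in 31.4% of the colon-side sites (Wilson 95% interval 29.2 to 33.6%), in 12.4% of the SI crypt-side sites (11.6 to 13.2%), in 22.0% of the distal sites called in all 6 libraries and in 15.0% of the distal union. GATA was in 1.71% of the colon-side sites (1.19 to 2.44%), in 12.6% of the SI crypt-side sites (11.8 to 13.4%), in 5.37% of the shared sites and in 6.44% of the union. Colon-side sites thus held GATA less often than the union, and SI crypt-side sites more often. Posterior HOX was in 4.01% of the colon-side sites (3.17 to 5.05%), in 1.27% of the SI crypt-side sites (1.03 to 1.56%) and in 1.38% of the union. CDX was in 23.2% of the colon-side sites and 21.6% of the SI crypt-side sites, with overlapping intervals, against 15.4% of the union. ETS was in 0.118% of the colon-side and 0.515% of the SI crypt-side sites, the opposite order to that over all peaks. HNF4 was in 1.89% of the colon-side and 2.94% of the SI crypt-side sites, and CTCF in 0.472% and 1.74%, against 2.93% of the union. The mean GC content was 46.1% in colon-side and 47.7% in SI crypt-side windows, and 49.0% in the union. Intervals cover counting error only, and the sites are not independent of each other.

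**Figure D3:**
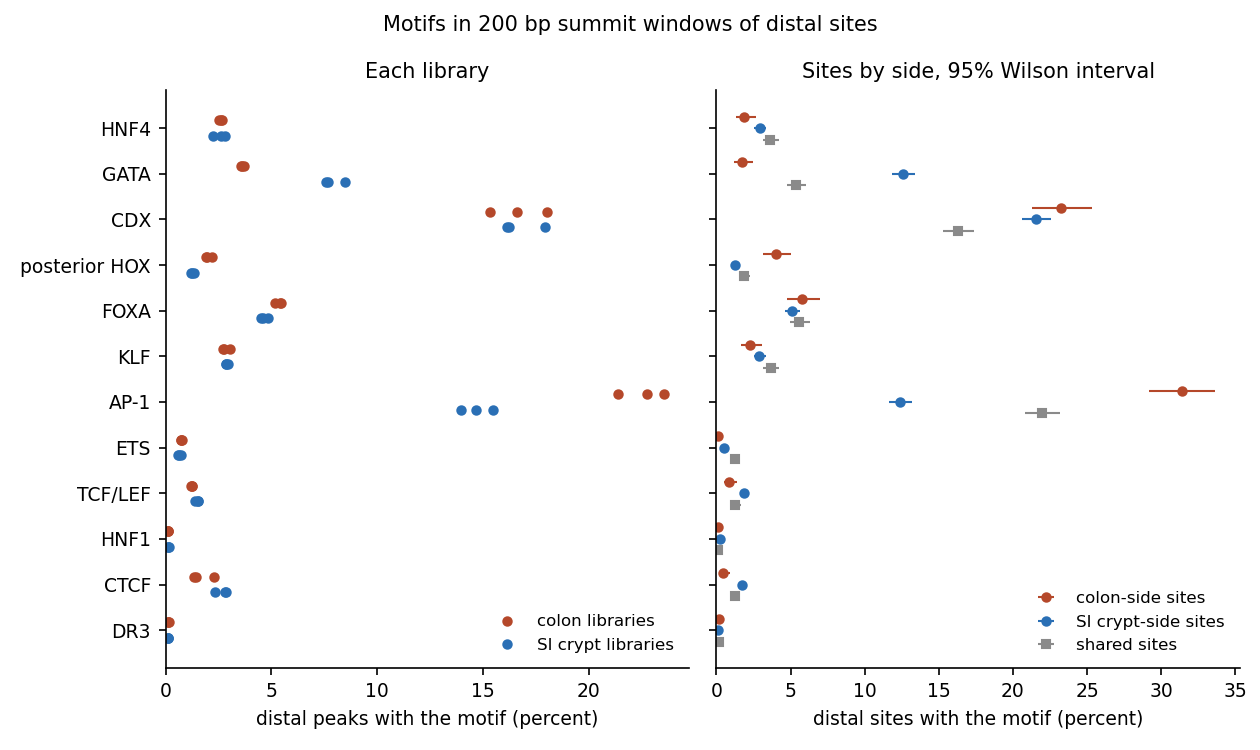
Percent of 200 bp summit windows with each of 12 motifs (vertical axis), at left for the distal peaks of each library (3 colon in red above, 3 SI crypt in blue below) and at right for distal colon-side sites (red), SI crypt-side sites (blue) and sites called in all 6 libraries (grey), with Wilson 95% intervals. AP-1 stands higher in colon in both panels (31.4% of colon-side against 12.4% of SI crypt-side sites) and GATA lower (1.71% against 12.6%), while CDX points lie together.

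Over all 84196 sites, promoters included, CDX was in 13.2%, AP-1 in 12.9%, GATA in 5.46%, FOXA in 3.96%, CTCF in 2.53%, KLF in 2.36%, HNF4 in 1.80%, ETS in 1.47%, posterior HOX in 1.24%, TCF/LEF in 1.19%, DR3 in 0.0891% and HNF1 in 0.0748%. Of the one-sided sites nearest to listed genes, the same motifs can be counted. Of 88 colon-side sites at these genes, 24 held AP-1, 19 CDX, 4 posterior HOX and 3 GATA. Of 310 SI crypt-side sites, 44 held AP-1, 66 CDX, 4 posterior HOX and 38 GATA.

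In the SI villus, which did not choose the sites, the SI crypt-side sites were called more often than the colon-side sites. Colon-side sites were called in 33.7, 29.7 and 18.8% in the 3 SI villus libraries, a mean of 27.4 ± 7.71% (SD, n = 3), and SI crypt-side sites in 61.0, 55.0 and 40.5%, a mean of 52.2 ± 10.5%. The second share was the larger in each library. For strong sites the means were 29.3 ± 8.53% on the colon side and 69.2 ± 8.85% on the SI crypt side. Of the strong sites, 57.7% of the colon-side and 18.9% of the SI crypt-side ones were called in no SI villus library. Of the strong SI crypt-side sites, 54.8% were called in all 3 SI villus libraries. Those of Aqp4 and the nearest one of Smoc2 were called in none.

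Sites called in all 6 libraries had a pileup, the number of tags stacked at the summit, in each library and could be tested. Limma was run on log2 pileup after each library was centred on its median over the 12908 sites. At a Benjamini-Hochberg adjusted p below 0.05, 2208 sites (17.1%) were higher and 2302 (17.8%) lower in colon. At promoters 18.3% were higher and 13.9% lower, and at distal sites 15.1% (720) were higher and 24.5% (1169) lower. The distal order turned when these 4766 sites were centred and fitted alone, with 946 (19.8%) higher and 784 (16.4%) lower, so no direction can be read from it. The balance again rested on the scaling: with pileup divided by the tags kept times the extension length, 369 were higher and 2935 lower, the median of all shared sites moving to -0.28 on the log2 scale, and with fold enrichment in place of pileup 1165 were higher and 1820 lower. Sites named below kept their direction and their call under all 10 alternatives unless stated.

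The largest difference towards colon was at a site 24.2 kb upstream of Edn1, the peptide endothelin 1 (chr13:42372107-42372747). Its fold enrichment was 10.2, 12.1 and 11.0 in colon, against 4.50, 5.63 and 5.09 in SI crypt, without overlap, and its pileup was 2.28 higher in colon on the log2 scale (SE 0.20, limma adjusted p = 3.67e-06). Next came sites at Snx29, a sorting nexin (2.12), Dsg2, a desmosomal cadherin (2.06), Trpm6, the magnesium channel of the distal gut (2.03), and D18Ertd653e (1.97). At the Trpm6 site, 23.3 kb from the start, the fold enrichment was 10.2, 11.8 and 11.7 in colon, against 3.94, 5.81 and 4.62 in SI crypt. Towards SI crypt the largest difference was 50.7 kb from Gm10076 (-2.55). The promoter of Cpox, an enzyme of heme synthesis (chr16:58670068-58670876), had a fold enrichment of 4.98, 4.31 and 5.51 in colon, against 14.4, 11.4 and 14.7 in SI crypt, and its pileup fell by 2.45 on the log2 scale (SE 0.18, limma adjusted p = 3.67e-06). It was followed by the promoter of Zfp931 (-2.29), a site at Fhad1 (-2.29) and a site at Trim52 (-2.26).

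**Figure D4:**
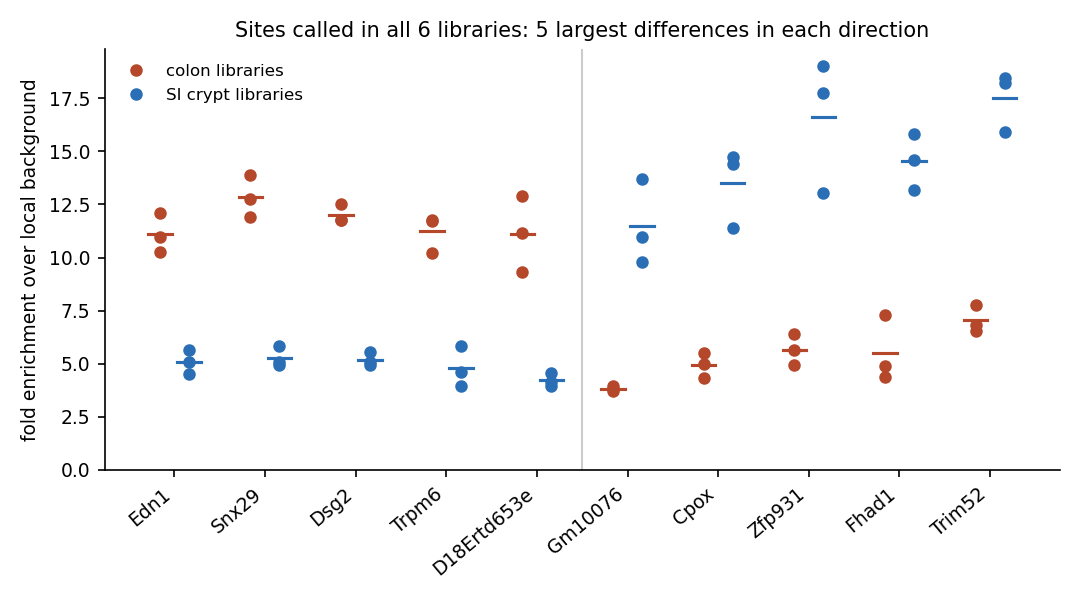
Fold enrichment over the local background (vertical axis, linear) at the 5 shared sites with the largest higher (left of the grey line) and lower (right of it) pileup in colon, named by the nearest gene, in 3 colon (red) and 3 SI crypt (blue) libraries, with a line at each mean. The groups do not overlap at any of the 10 sites, from Edn1 (10.2 to 12.1 in colon, 4.50 to 5.63 in SI crypt) to Trim52 (6.56 to 7.77 in colon, 15.9 to 18.5 in SI crypt).

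Shared sites of the listed genes moved along with the one-sided ones for sugar and peptide digestion. Of its 17 shared sites 3 were higher and 11 lower in colon, with a median of -0.67 on the log2 scale, against 0.01 over all shared sites. With pileup scaled by tags the counts were 0 and 12, and the median was -0.96, against -0.28 over all. At Sis a second site, 8.93 kb upstream, had a fold enrichment of 4.59, 4.35 and 4.39 in colon, against 9.57, 9.57 and 13.4 in SI crypt, and its pileup fell by 1.51 (SE 0.20, limma adjusted p = 8.66e-05). Of 35 shared sites of small intestine factors, 4 were higher and 10 lower, with a median of -0.40, and scaled by tags 1 and 15, with a median of -0.69. The promoter of Hnf4g, a factor of enterocytes, had 3.94, 7.46 and 4.87 in colon, against 11.6, 12.0 and 10.1 in SI crypt, and fell by 1.58, whereas a site 24.5 kb from Hnf4a, its close relative, rose by 1.01. Of 30 shared sites of colon ion and water transport genes 7 were higher and 6 lower, with a median of 0.10. With pileup scaled by tags the counts were 2 and 9, and the median was -0.19, against -0.28 over all. Of the 3 shared sites of Slc9a2, a sodium-proton exchanger, 2 rose, its promoter by 1.04 and a site 27.7 kb away by 1.26. Of the 4 shared sites of Nedd4l, a ubiquitin ligase that removes sodium channels, 2 fell, those 53.0 and 68.9 kb from its start, by 1.15 and 1.51. Of 25 shared sites of stem cell and WNT genes 4 were higher and 6 lower, and scaled by tags 1 and 6. Those that fell included 3 of the 4 at Lrig1, a stem cell regulator, by 1.05 to 1.39.

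Of 28 shared sites of calcium, iron and vitamin D genes 6 were higher and 6 lower, and scaled by tags 3 and 6. Directions differed within one gene. At Slc30a10 a site 61.2 kb from the start had a fold enrichment of 11.1, 11.3 and 12.8 in colon, against 6.40, 4.92 and 6.39 in SI crypt, and rose by 1.43 (SE 0.18, limma adjusted p = 4.79e-05). Another, 54.3 kb from the start, fell by 0.68 and lost its call under 1 of the 10 alternatives. The promoter of Slc40a1, the iron exporter ferroportin, fell by 1.17, with 6.89, 8.39 and 7.31 in colon, against 12.9, 9.85 and 12.8 in SI crypt. Both shared sites of Ugt1a1, a glucuronidating enzyme of the xenobiotic list, fell, the promoter by 1.24 and a site 2.17 kb downstream by 1.83. At Klf4, a shared site 176 kb away rose by 1.20, with 13.2, 13.4 and 14.0 in colon, against 6.85, 7.17 and 6.55 in SI crypt, while its promoter rose by 0.91 but lost the call under 2 of the 10 alternatives.

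VDR binding gave a readout from other mice and another assay. For each ChIP-seq sample, the number of colon-side sites with a VDR peak was divided by the number of SI crypt-side sites with one, so that each sample compares the 2 sets of sites within itself. In the 4 colon samples a VDR peak overlapped 1.77, 8.28, 6.68 and 12.1% of the colon-side sites and 0.601, 2.28, 2.15 and 4.40% of the SI crypt-side sites. In the 4 SI crypt samples it overlapped 3.26, 2.21, 0.663 and 1.33% of the colon-side sites and 3.53, 1.24, 0.992 and 2.21% of the SI crypt-side sites. In the 4 SI villus samples it overlapped 3.42, 3.26, 1.71 and 1.88% of the colon-side sites and 3.70, 2.61, 0.953 and 2.72% of the SI crypt-side sites. The log2 ratio of the numbers of sites averaged -0.45 ± 0.17 for colon ChIP-seq, -2.21 ± 0.69 for SI crypt and -1.94 ± 0.59 for SI villus (SD, n = 4 each). All are below 0 because SI crypt-side sites were more numerous. The ratio was 1.76 higher in colon than in SI crypt and 1.49 higher than in SI villus, without overlap of the samples, each with a two-sided exact permutation p of 0.0286, also after adjustment over the 2 comparisons, the smallest that 4 against 4 allows. Leaving out any 1 of the 4 colon samples gave differences of 1.68 to 1.81 against SI crypt. The two-sided exact permutation p was then 0.0571, which is not the smallest that 3 against 4 allows. With strong sites the differences were 2.08 and 1.79, and with equal lists 1.33 and 0.98. In the pooled VDR lists, 24.0% of the colon-side sites had a colon VDR peak and 4.31% an SI crypt VDR peak, and for SI crypt-side sites these shares were 8.50% and 6.18%. Of the sites called in all 6 libraries, 38.1% had a colon VDR peak and 27.7% an SI crypt VDR peak.

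**Figure D5:**
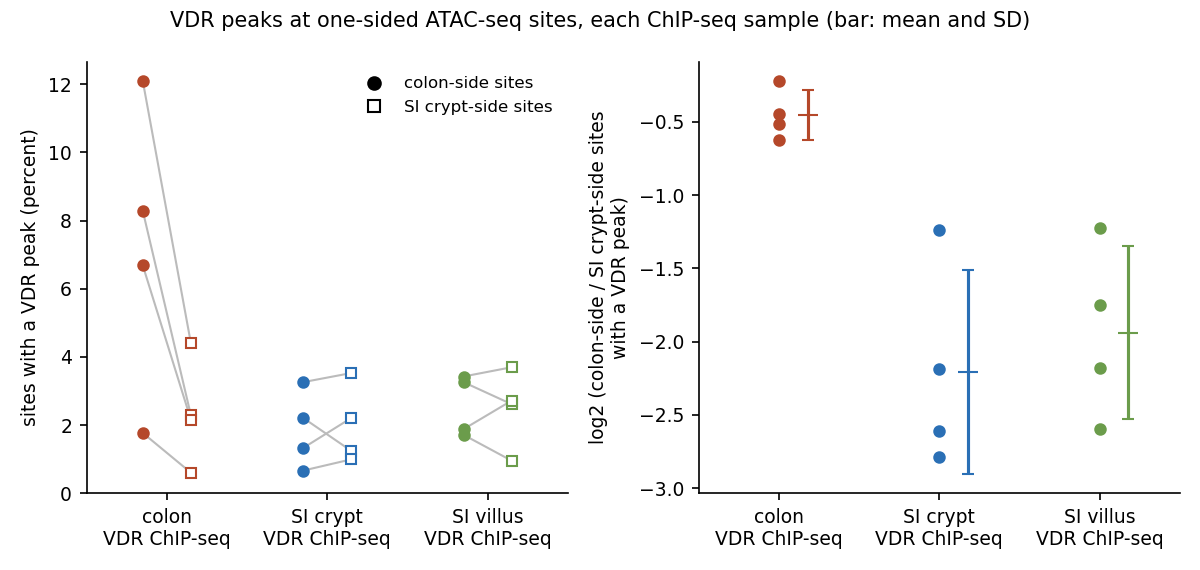
Left, percent of colon-side sites (filled circles) and SI crypt-side sites (open squares) with a VDR peak in each of 4 ChIP-seq samples of colon (red), SI crypt (blue) and SI villus (green), lines joining the 2 values of a sample. Right, log2 ratio of the 2 numbers of sites per sample, with mean and SD beside the points. The 4 colon samples lie between -0.62 and -0.22, above all SI crypt (-2.79 to -1.24) and SI villus samples (-2.60 to -1.22).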

How the data were processed

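Peak lists of ATAC-seq and VDR ChIP-seq were used as deposited, on genome build mm9. Per the file headers, the authors called peaks with MACS2 2.1.0.20150731 per library without a control, at a q threshold of 0.05, keeping 1 tag per position, with a shift and an extension set per library. The submitters' processing notes also name cutadapt 1.9.1 and Bowtie2 2.2.6, with deepTools and DiffBind without a version, SAMtools 0.1.19, Picard 2.18.27 and bedtools 2.17.0. The deposited pileup is the number of extended tags at a summit, which the authors did not scale to depth. The deposited fold enrichment is that pileup over the local background of the same library, and the deposited −log10 q value is the score of that comparison. Pooled lists were called by the authors on merged reads and were used for positions.

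Sites were the union of the 6 ATAC-seq lists, called by an overlap of 1 bp, after 2 mitochondrial peaks per list were left out. Promoter sites lay within 1000 bp of 46015 start sites of 22367 protein-coding genes of the mm9 annotation. Motifs were matched in 200 bp summit windows. Compartments were compared by two-sided exact permutation tests over samples, and shared sites by limma 3.58.1 in R 4.3.3 with Benjamini-Hochberg adjustment. In simulated data on the 12908 shared sites, 58% of sites changed by 1 and 95% of sites changed by 2 on the log2 scale were recovered. Of the calls there, 2.55% were false. Far fewer sites were changed in the simulation than were called in the real data, so these rates need not hold for the real comparison. Other steps used Python 3.11.15, numpy 2.4.6, pandas 2.3.3, scipy 1.17.1 and matplotlib 3.10.9.

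The comparison, the gene lists and the tests were chosen with earlier results of these data known. Genes were named if they had the 10 highest numbers of sites of a side, the 5 strongest promoter or distal sites by pileup rank, membership in a list, or the 5 largest limma differences in each direction. Alternatives were equal lists of 21269 peaks ranked by pileup or by q value, a −log10 q of at least 5, other promoter distances and motif windows, other scalings, a replicate block and leaving out each replicate.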

Additional observations from a re-analysis of the deposited data

Results flagged for a closer look

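The VDR readout differed between the compartments by a test of the difference itself. The log2 ratio of colon-side to SI crypt-side sites with a VDR peak was 1.76 higher in the 4 colon ChIP-seq samples than in the 4 SI crypt samples, and 1.49 higher than in the 4 SI villus samples. Every colon sample lay above every SI crypt and every SI villus sample. Colon VDR lists ranged from 1760 to 10100 peaks, SI crypt lists from 1136 to 13381 and SI villus lists from 1535 to 10384, and the part of list length in the difference was not tested. No group of 4 samples held a value that stood apart from the others by Dixon's criterion, which chance meets in about 1 of 20 groups.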

How the results depend on the processing

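Of 248 alternative values, 177 kept their direction and size or call and 26 changed direction. For peak numbers, promoter shares per library and motif shares, p could not fall below 0.05 under any setting. For these a kept value means a kept direction only, and a gain or loss of separation between the groups was not counted. Colon-side sites numbered 3145 with equal lists by pileup and 3189 by q value, and SI crypt-side sites 2458 and 2646. The share of one-sided sites that were colon-side was 19.1% and became 56.1% and 54.7%. SI crypt-side sites numbered 4790 at a −log10 q of at least 5 and 1828 as strong sites. Leaving out 1 library gave 1912 to 3660 colon-side sites, the highest without colon replicate 1, and 7831 to 13874 SI crypt-side sites, the highest without SI crypt replicate 2. The promoter share per library was -1.35 points in colon minus SI crypt with equal lists. The promoter share of colon-side sites was 4.75% with a shorter and 11.7% with a longer promoter distance and 16.5% with equal lists, and of SI crypt-side sites 8.93%, 15.5% and 14.0%. Among shared sites, 369 were higher in colon after scaling by tags and extension and 1165 with fold enrichment, and with distal sites fitted alone 946 were higher and 784 lower, whereas the same 4766 sites had 720 and 1169 in the fit over all shared sites, so their order turned. Leaving out 1 library gave 1550 to 1995 higher and 1768 to 2173 lower sites.

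Same-numbered colon and SI crypt libraries did not deviate together at the shared sites, with correlations of -0.05, -0.05 and 0.05. A shared animal need not leave such a correlation, so whether same-numbered libraries share an animal was not settled. With a replicate block, 2130 shared sites were higher and 2270 lower, and 4280 of 4510 calls were kept. For VDR, sign flips within replicate numbers as a block gave the same differences, 1.76 and 1.49, with an exact p of 0.125, the smallest possible. Leaving out 1 ChIP-seq sample gave 1.56 to 2.08 against SI crypt and 1.27 to 1.73 against SI villus, and the exact permutation p was 0.0571 wherever a colon sample was left out.

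Differences of motif shares that changed direction, in percentage points of colon minus SI crypt, were HNF4 at 0.14 in 100 bp windows, 0.045 in distal peaks and 0.058 with equal lists, CDX at 0.11 and HNF1 at 0.012 in 100 bp windows, CTCF at 0.21 with equal lists, and, in promoter peaks alone, FOXA at -0.12, AP-1 at -0.034, HNF1 at 0.0014 and DR3 at -0.017. GATA, posterior HOX, ETS, TCF/LEF and KLF kept their direction under those settings, but not always their separation. KLF overlapped between the compartments throughout, TCF/LEF in 100 bp windows, ETS in distal peaks, and HNF1 in 100 and 400 bp windows and in distal and promoter peaks. Other motifs overlapped over all peaks but separated elsewhere. DR3 was higher in colon in 100 and 400 bp windows, in distal peaks and with equal lists, and lower in promoter peaks. FOXA was higher in colon in distal peaks and with equal lists, CTCF lower in distal peaks and CDX lower in promoter peaks. With equal lists ETS stood at 0.43, against 1.14 with whole lists, and TCF/LEF at -0.074, against -0.27. Of 19 gene lists, 17 had more genes at SI crypt-side than at colon-side sites with whole lists, 8 with equal lists and 11 with strong sites. Lists that turned to more genes on the colon side did so by 2 (epithelial markers, small intestine factors, calcium, enteroendocrine), 3 (colon identity, defence), 4 (lipid absorption) or 1 (immune markers) with equal lists. With strong sites they did so by 1 (epithelial markers, colon identity) or 2 (calcium, defence), and within 10 kb of a start by 1 (epithelial markers). Strong sites and promoter peaks alone were settings chosen after seeing the data. The cause of these changes was not tested. Peaks carry no reads outside called regions, so a site without a call has no measured level, and the depth of a single library limits every count of absence.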
